A study of Danio rerio with 13 samples.

Results

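The 6 genes described here mark differentiated neurons or myelin, and their transcripts were measured in the tail of zebrafish larvae in which deiodinases had been knocked down. They are neurod6b, tagln3b, sncgb, cplx2b, rtn1a and plp1a. Every probe of these genes in the lists of called probes was taken, which gave 9 probes out of the 19523 in the deposited table of all contrasts. The called lists together held 995 probes and pair probes with accessions, which named 572 genes. All 6 members were found among these, rtn1a with 4 probes and each of the others with 1. Because a name required a call in at least 1 contrast, the number of members called carries no information about the members themselves, and the values below are a description of their size, direction and error.

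RNA came from pools of tails of wild type WIK larvae at 72 hours post fertilization. D1D2MO larvae had received morpholinos against deiodinase type 1 and type 2, which produce the active thyroid hormone. D3MO larvae had received a morpholino against dio3b, a deiodinase of type 3, which inactivates that hormone. SCMO larvae had received a standard control morpholino, so all groups shared the injection. Morpholinos are antisense oligomers, and those used here block translation for a limited time, so a deiodinase transcript does not show whether its knockdown worked. The tail was what remained after head and abdomen had been cut away, and the head fragment held the brain and jaw. A larval tail holds muscle, skin, fin fold, notochord and spinal cord. Labelled cRNA was hybridised on 13 arrays of 2 colours, 5 with D1D2MO and SCMO, 4 with D3MO and SCMO and 4 with D3MO and D1D2MO. Each pool held 20 tails per the labels, while the methods give a larger pool. Per the methods, the 4 biological replicates per group were each labelled with both dyes. Pools therefore recurred on several arrays, and the error below may be partly technical. The dyes were not balanced on the arrays: D3MO was in Cy5 in 5 of 8 channels, and D1D2MO and SCMO each in 4 of 9. The deposited fit had 8.72 total degrees of freedom, fewer than a fit to all 13 arrays would leave, and which arrays or terms it held is not settled.

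Neurons leave the pool of dividing progenitors, switch on transcription factors of the NeuroD family, and later make the proteins of the axon and synapse. Myelin is the insulating sheath around axons, made by oligodendrocytes in the central nervous system and by Schwann cells in the periphery, and thyroid hormone is known to promote the maturation of oligodendrocytes in vertebrates. Of the members, neurod6b encodes a NeuroD transcription factor. Tagln3b encodes a neuronal relative of the actin-binding protein transgelin. Sncgb encodes a synuclein, a small protein found at nerve terminals. Cplx2b encodes a complexin, which binds the SNARE complex that fuses synaptic vesicles with the membrane. Rtn1a encodes a reticulon, a protein that shapes the endoplasmic reticulum and is abundant in neurons of mammals. Plp1a encodes proteolipid protein, a main protein of central myelin in mammals.

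In D3MO tails, 4 of the 5 neuron genes fell and the myelin gene rose relative to SCMO tails. The decreases were in neurod6b, tagln3b, sncgb and cplx2b, whose levels lay between 57.6 and 64.3 percent of SCMO, and plp1a stood at 171 percent of SCMO. The fifth neuron gene, rtn1a, was not called by any of its 4 probes. A call means an adjusted p below 0.05 together with a change of more than 1.5-fold. Of all 19523 probes, 0.579 percent were called lower by this rule and 1.4 percent higher. At an adjusted p below 0.05 alone, the shares were 14.9 percent lower and 15.6 percent higher. In pooled whole tails, fewer cells of a type and less RNA per cell cannot be told apart. The files used here hold fitted contrasts and no level per array, so each value is a log2 fold change with its standard error (SE) or its 95% confidence interval (CI).

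The transcription factor gene neurod6b had the lowest value of the members in D3MO relative to SCMO, with a log2 fold change of -0.80 ± 0.06 (SE, CI -0.93 to -0.66, adjusted p = 8.48e-05). It held place 20 from the lowest of all 19523 probes. Its mean log2 intensity was 7.31, the lowest of the 9 member probes. That lay below 8.13, the bound of the dimmest 25 percent of listed probes. The cytoskeletal gene tagln3b had a log2 fold change of -0.73 ± 0.06 (CI -0.85 to -0.60, adjusted p = 0.000101) and held place 39. Both intervals lay wholly beyond the 1.5-fold threshold.

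The genes of the nerve terminal followed with nearly equal values. The complexin gene cplx2b had a log2 fold change of -0.64 ± 0.06 in D3MO relative to SCMO (CI -0.78 to -0.51, adjusted p = 0.000209). The synuclein gene sncgb had one of -0.64 ± 0.06 (CI -0.76 to -0.51, adjusted p = 0.000181). They held places 68 and 70 from the lowest. The intervals of these 4 decreases overlapped each other, so their order is not resolved by the error, and those of sncgb and cplx2b reached back across the 1.5-fold threshold.

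The myelin gene plp1a stood on the opposite side. Its log2 fold change in D3MO relative to SCMO was 0.77 ± 0.06 (CI 0.64 to 0.91, adjusted p = 0.000105), place 85 from the highest of all probes. In percent of SCMO, the interval ran between 156 and 188.

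**Figure D1:**
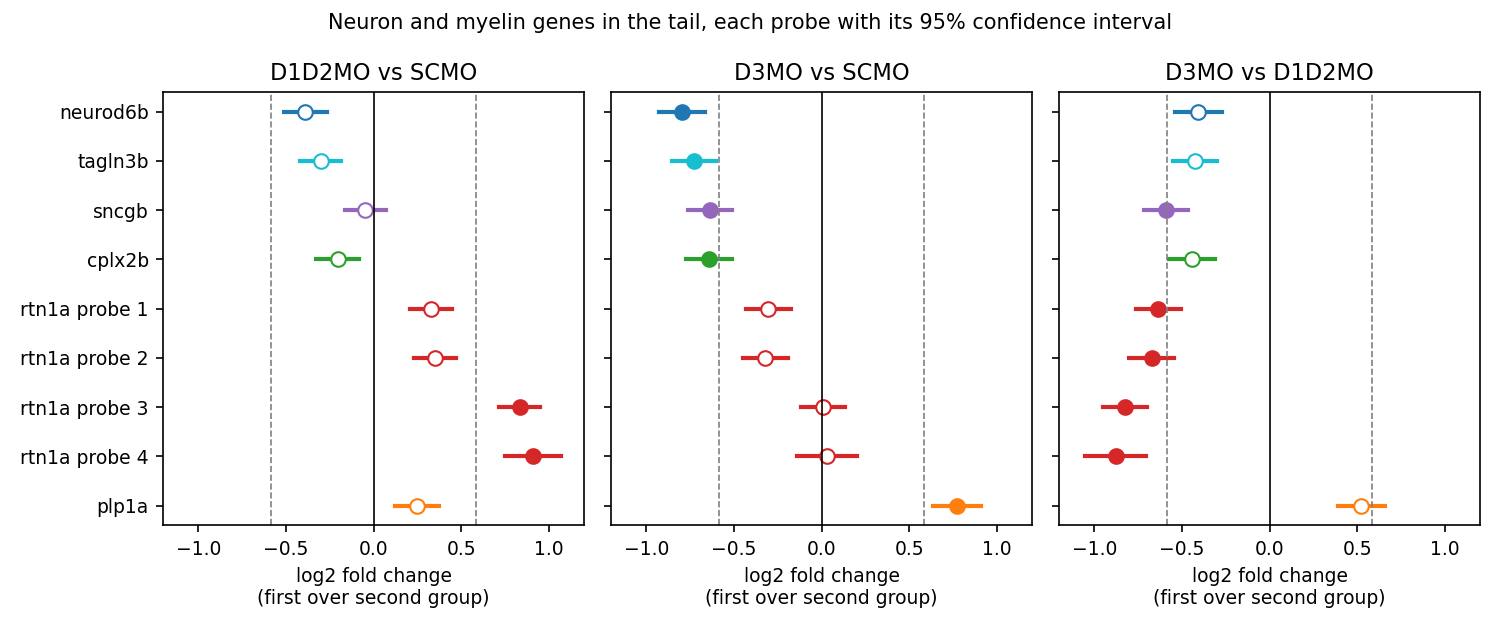
Log2 fold change (first over second group) of each of the 9 probes in D1D2MO vs SCMO, D3MO vs SCMO and D3MO vs D1D2MO. Points are the deposited values, horizontal bars their 95% confidence intervals, filled points are called and dashed lines mark 1.5-fold. In D3MO vs SCMO the neuron genes with a single probe lie between -0.80 and -0.64 and plp1a at 0.77.

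In D1D2MO tails, none of the 6 genes was called relative to SCMO by its brightest probe, while the dimmer probes of rtn1a were called higher. Of all probes, 2.35 percent were called higher and 0.0102 percent, which is 2 probes, were called lower. At an adjusted p below 0.05 alone, 14.1 percent were higher and 6.86 percent lower. By that weaker rule 3 members were lower (neurod6b, tagln3b and cplx2b) and 2 were higher (rtn1a and plp1a), all by less than 1.5-fold.

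Neurod6b again had the lowest value, with a log2 fold change of -0.39 ± 0.05 in D1D2MO relative to SCMO (CI -0.51 to -0.27, adjusted p = 0.00131), or 76.3 percent of SCMO. Tagln3b had a log2 fold change of -0.30 ± 0.05 (CI -0.42 to -0.19, adjusted p = 0.00359), or 81.1 percent. Cplx2b had one of -0.20 ± 0.05 (CI -0.33 to -0.08, adjusted p = 0.0281), or 86.8 percent. The intervals of neighbouring values overlapped, whereas those of neurod6b and cplx2b overlapped only between -0.33 and -0.27. Sncgb did not pass the test, with a log2 fold change of -0.05 ± 0.05 (CI -0.16 to 0.07, adjusted p = 0.576), an interval that leaves room for at most a change to 89.3 percent or to 105 percent of SCMO. The myelin gene plp1a had a log2 fold change of 0.25 ± 0.06 (CI 0.12 to 0.37, adjusted p = 0.0136), or 119 percent of SCMO.

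**Figure D2:**
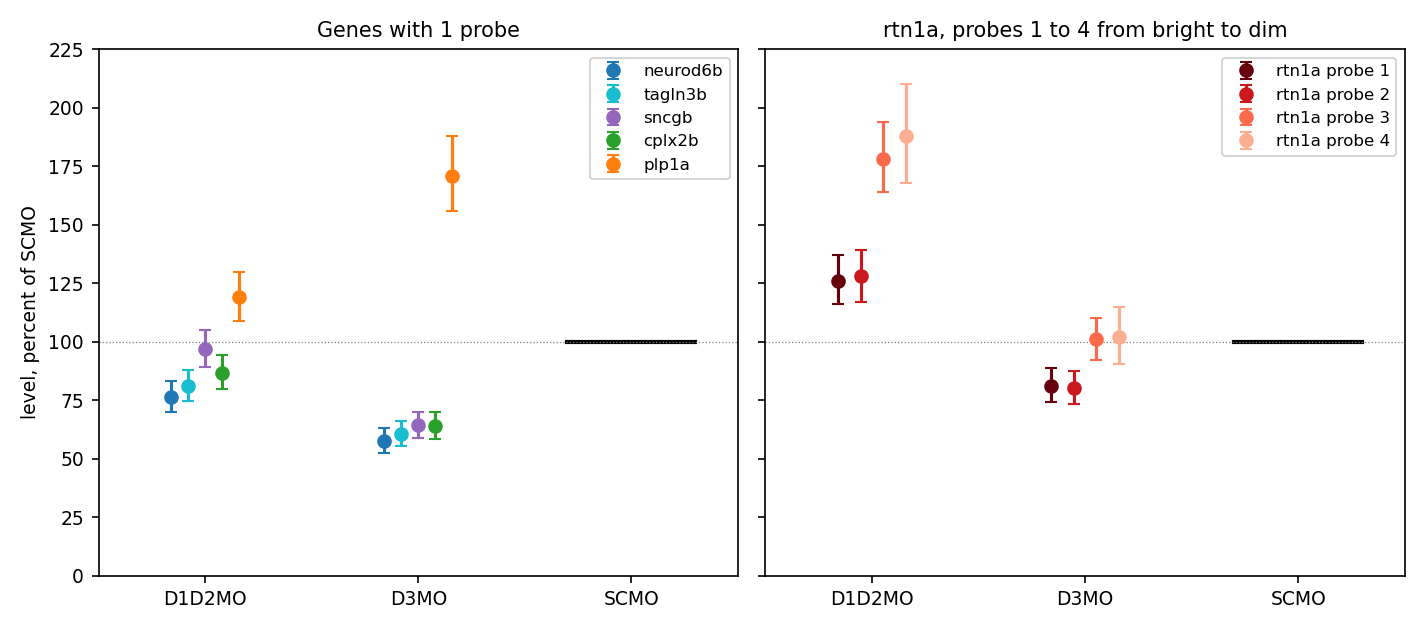
Level in percent of SCMO on the vertical axis, for the genes with 1 probe on the left and for the 4 probes of rtn1a, numbered from bright to dim, on the right. Points are deposited fold changes turned into percent, bars are 95% confidence intervals and the black line is SCMO. The neuron genes with a single probe lie between 57.6 and 64.3 percent in D3MO and between 76.3 and 96.9 percent in D1D2MO.

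The knockdowns also differed from each other, which the contrast of D3MO with D1D2MO tested. By the brightest probe, sncgb and rtn1a were called lower in D3MO than in D1D2MO, and no member was called higher. All 9 probes passed an adjusted p below 0.05, 8 of them lower and that of plp1a higher. Of all probes, 2.28 percent were called lower and 0.912 percent higher, and at an adjusted p below 0.05 alone 17.3 percent were lower and 12.1 percent higher. In the fit this contrast equalled the difference of the other contrasts, so it adds the test of that difference and no separate estimate. D3MO and D1D2MO were hybridised together on 4 arrays, but which arrays the fit held is not settled.

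Sncgb had a log2 fold change of -0.59 ± 0.06 in D3MO relative to D1D2MO (CI -0.72 to -0.47, adjusted p = 0.000145), just beyond 1.5-fold. When log2 fold changes were centred on the median of all probes, this value became -0.57 and was no longer called. Cplx2b stood at 73.7 percent of D1D2MO, with a log2 fold change of -0.44 ± 0.06 (CI -0.57 to -0.31, adjusted p = 0.000797). Neurod6b and tagln3b, the members that were also lowest in D1D2MO, stood at 75.5 and 74.5 percent of D1D2MO. Their log2 fold changes were -0.41 ± 0.06 (adjusted p = 0.00126) for neurod6b and -0.42 ± 0.06 (adjusted p = 0.000766) for tagln3b, neither of them called. Plp1a lay just inside 1.5-fold, with a log2 fold change of 0.52 ± 0.06 (CI 0.39 to 0.66, adjusted p = 0.000394), or 144 percent of D1D2MO.

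**Figure D3:**
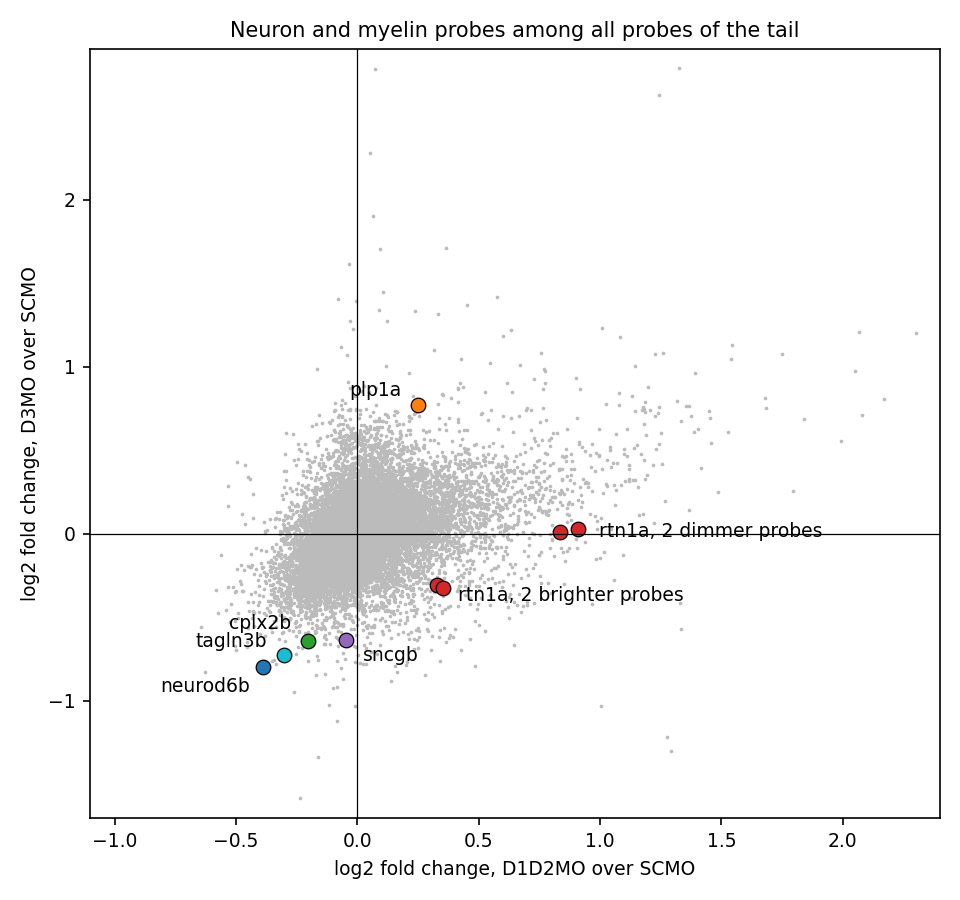
Log2 fold change of all 19523 probes in D1D2MO over SCMO (horizontal) and D3MO over SCMO (vertical), grey, with the 9 member probes in colour. Both axes share SCMO as their reference group. Plp1a lies at the upper edge of the dense cloud of grey points, neurod6b, tagln3b, cplx2b and sncgb lie at its lower edge, and rtn1a lies to the right with its dimmer probes at 0.83 and 0.91 on the horizontal axis.

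The reticulon gene rtn1a was the only member with several probes in the called lists, and they formed a brighter and a dimmer pair with different values. A probe called in no contrast has no name here, so further probes of any member could not be seen. All 4 carried the same RefSeq accession, and which part of the transcript each binds was not analysed here. The mean log2 intensity was 10.7 for each probe of the brighter pair, and 9.57 and 9.38 for those of the dimmer pair.

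In D1D2MO relative to SCMO, the brighter probes had log2 fold changes of 0.33 ± 0.05 (adjusted p = 0.00265) and 0.35 ± 0.05 (adjusted p = 0.00184), short of 1.5-fold. The dimmer probes rose, with log2 fold changes of 0.83 ± 0.05 (adjusted p = 1.76e-05) and 0.91 ± 0.07 (adjusted p = 5.17e-05). The intervals of the pairs did not overlap, since the brighter pair ended at 0.47 and the dimmer pair began at 0.72.

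In D3MO relative to SCMO, the brighter probes had log2 fold changes of -0.30 ± 0.06 (adjusted p = 0.00506) and -0.32 ± 0.06 (adjusted p = 0.00387), or 81.0 and 80.0 percent of SCMO. The dimmer probes did not pass the test, at 0.01 ± 0.06 (CI -0.12 to 0.14, adjusted p = 0.92) and 0.03 ± 0.08 (CI -0.14 to 0.20, adjusted p = 0.791). Whether rtn1a passed an adjusted p below 0.05 in D3MO relative to SCMO therefore depended on the probe, as did its call in D1D2MO relative to SCMO.

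Between the knockdowns the probes ran in the same direction. All 4 fell in D3MO relative to D1D2MO, with log2 fold changes of -0.63 and -0.67 for the brighter and -0.83 and -0.88 for the dimmer pair, and adjusted p between 3.33e-05 and 0.000119. Their levels lay between 54.4 and 64.5 percent of D1D2MO. The brighter probes were listed only because they were called in this contrast. The agreement of the 4 probes was therefore partly fixed by how they were chosen.

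A spread of this size between probes was also seen in other named genes with several listed probes, a set that leaves out probes called in no contrast. Of 16 named genes with at least 4 listed probes, rtn1a among them, the median distance between the lowest and the highest probe was 0.614 on the log2 scale in D1D2MO vs SCMO, 0.29 in D3MO vs SCMO and 0.464 in D3MO vs D1D2MO. The distances for rtn1a were 0.579, 0.352 and 0.245 in the same contrasts, and 8, 7 and 12 of the other genes had a wider one. The other members rest on 1 listed probe each, so a comparison between probes could not be made for them. Zebrafish carry duplicate copies of many genes, marked a and b, and whether a probe also binds the other copy was not analysed here.

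Related genes named in the same lists were set beside the members. Of the NeuroD family, neurod4 was the only other gene named. It belongs to the progenitor list below and moved in the opposite direction to neurod6b. Its log2 fold change was 0.83 ± 0.05 in D3MO relative to SCMO (adjusted p = 5.32e-05), against -0.80 for neurod6b. In D1D2MO relative to SCMO neurod4 stood at 0.35 ± 0.05 (adjusted p = 0.00147), below 1.5-fold.

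The synuclein gene sncb had a log2 fold change of -0.39 ± 0.05 in D3MO relative to SCMO (adjusted p = 0.00142) and of 0.28 ± 0.05 in D1D2MO relative to SCMO (adjusted p = 0.00546), neither called. It fell in D3MO relative to D1D2MO, at -0.67 ± 0.05 (adjusted p = 7.61e-05), as sncgb did. Sncb thus lay below SCMO in D3MO and above it in D1D2MO, the order also shown by the brighter rtn1a probes. Both have a name only through a call between the knockdowns, which favours this order.

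The transgelin gene tagln2, which in mammals is widely expressed outside neurons, rose in D1D2MO relative to SCMO, with a log2 fold change of 0.62 ± 0.05 (adjusted p = 8.46e-05). It did not pass the test in D3MO relative to SCMO, at 0.15 ± 0.06 (adjusted p = 0.0731). The reticulon gene rtn2a rose in D1D2MO relative to SCMO by 0.59 ± 0.05 (adjusted p = 0.000116) and stood at 0.01 ± 0.06 in D3MO relative to SCMO (adjusted p = 0.909). In D3MO this lay close to the dimmer rtn1a probes, while in D1D2MO it lay between the brighter and the dimmer pair. No other complexin and no other proteolipid protein gene was named.

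A wider list of 154 genes of differentiated neurons had 13 named members, 5 of them the neuron genes above. In D3MO relative to SCMO, 6 of the 13 were called lower and none higher, with a median log2 fold change of -0.48. At an adjusted p below 0.05 alone, 11 were lower and 1 higher. In D1D2MO relative to SCMO, 2 of the 13 were called higher and none lower, with a median of 0.14. By the weaker rule, 6 were higher and 5 lower. In D3MO relative to D1D2MO, 8 of the 13 were called lower and none higher, with a median of -0.61. By the weaker rule, all 13 were lower. The medians of all probes in these contrasts were -0.01, 0.00 and -0.02, and those of all 572 named genes 0.29, 0.51 and -0.48. Of all probes, 0.579 percent were called lower in D3MO and 2.35 percent higher in D1D2MO, both relative to SCMO. In D3MO relative to D1D2MO, 2.28 percent were called lower. At an adjusted p below 0.05 alone, 14.9 percent were lower and 15.6 percent higher in D3MO relative to SCMO. In D1D2MO relative to SCMO these shares were 6.86 and 14.1 percent, and 17.3 percent were lower in D3MO relative to D1D2MO. The list genes too have a name only because a probe of theirs was called. The 6 called lower in D3MO relative to SCMO include the members neurod6b, tagln3b, sncgb and cplx2b described above.

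Besides the members, elavl4 fell in D3MO relative to SCMO, with a log2 fold change of -0.61 ± 0.06 (adjusted p = 0.000427). It encodes an RNA-binding Hu protein of neurons and is the defining neuron marker named here, and its dimmer probe stood at -0.80. Slc6a1b, which encodes a transporter of the inhibitory transmitter GABA, fell by 0.61 ± 0.07 on the log2 scale (adjusted p = 0.000501). In D1D2MO relative to SCMO, elavl4 stood at -0.20 ± 0.06 (adjusted p = 0.0434) by its brightest probe and at -0.07 by its dimmer one. Slc6a1b stood at -0.25 ± 0.06 (adjusted p = 0.0206). Both genes lay below 1.5-fold, as cplx2b and tagln3b did.

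Other neuron genes had values above SCMO in D1D2MO and below it in D3MO, as the brighter rtn1a probes did. These genes and probes were called only in D3MO relative to D1D2MO and have a name through that call. Such a call favours values on opposite sides of SCMO, so the shared order follows in part from the naming rule. Stxbp1a, whose product binds syntaxin and is needed for vesicle release, had a log2 fold change of 0.51 ± 0.05 in D1D2MO (adjusted p = 0.000249) and -0.26 ± 0.06 in D3MO (adjusted p = 0.00876), both relative to SCMO. It had the second lowest value of the 13 between the knockdowns, with a log2 fold change of -0.77 ± 0.06 in D3MO relative to D1D2MO (adjusted p = 4.76e-05). Mllt11 stood at 0.24 ± 0.06 in D1D2MO relative to SCMO (adjusted p = 0.0204) and at -0.48 ± 0.06 in D3MO relative to SCMO (adjusted p = 0.00122). Stmn2a, a stathmin that destabilises microtubules in growing axons, stood at -0.46 ± 0.06 (adjusted p = 0.00118) in D3MO relative to SCMO. In D1D2MO relative to SCMO it did not pass the test, at 0.14 ± 0.06 (adjusted p = 0.111).

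The 2 neuron-list genes called higher in D1D2MO encode glycolytic enzymes. Gapdhs had a log2 fold change of 0.95 ± 0.06 in D1D2MO (adjusted p = 1.95e-05) and of 0.28 ± 0.07 in D3MO (adjusted p = 0.0128), both relative to SCMO. Aldocb, the aldolase form of brain in mammals, had one of 0.86 ± 0.07 in D1D2MO (adjusted p = 7.06e-05) and of 0.07 ± 0.08 in D3MO (adjusted p = 0.535).

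**Figure D4:**
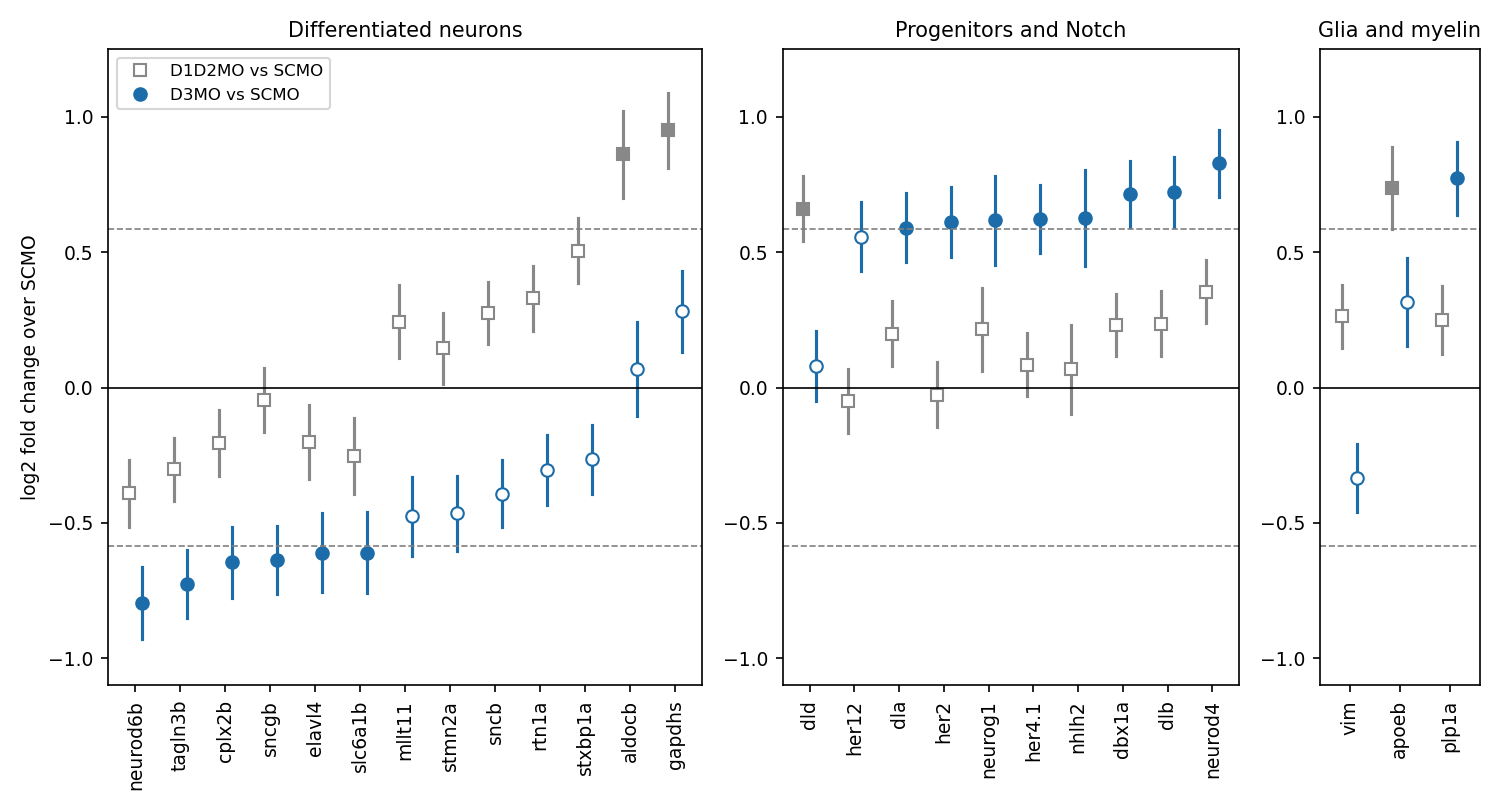
Log2 fold change over SCMO of the named genes of 3 lists, by the brightest probe of each gene. Grey squares are D1D2MO and blue circles D3MO, vertical bars are 95% confidence intervals, filled symbols are called and dashed lines mark 1.5-fold. In D3MO, 6 genes of the neuron list are filled below the lower line and 8 of the progenitor list above the upper line. Of all probes, 0.579 percent were called lower and 1.4 percent higher in D3MO relative to SCMO.

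The list of neural progenitor and Notch genes had 10 named members out of 63. It holds neurod4, although NeuroD factors are switched on as neurons leave the pool of progenitors. In D3MO relative to SCMO, 8 were called higher and none lower (median 0.62). In that contrast 1.4 percent of all probes were called higher and the median of the named genes was 0.29. As on the neuron list, a gene could be named only if a probe of it was called in at least 1 contrast. In D1D2MO relative to SCMO, 1 was called higher and none lower (median 0.21). In D3MO relative to D1D2MO, 2 were called higher and none lower (median 0.48). The shares of all probes called higher in the latter contrasts were 2.35 percent for D1D2MO vs SCMO and 0.912 percent for D3MO vs D1D2MO. Of those that rose in D3MO, dlb, which encodes a Notch ligand, had a log2 fold change of 0.72 ± 0.06 (adjusted p = 0.00012) and dbx1a, a homeobox gene of spinal cord progenitors, one of 0.72 ± 0.05 (adjusted p = 0.000101). The helix-loop-helix gene nhlh2 had one of 0.63 ± 0.08 (adjusted p = 0.00089). Her12 and dld were the members not called in that contrast. Dld, another Notch ligand gene, rose in D1D2MO by 0.66 ± 0.05 (adjusted p = 5.88e-05) and stood at 0.08 ± 0.06 in D3MO (adjusted p = 0.322), both relative to SCMO. Without the dimmest 25 percent of listed probes, the number called higher in D3MO relative to SCMO was 3 in place of 8.

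Between the knockdowns, the members of this list called higher were her2 and her12, which encode repressors of the Hairy and Enhancer of split family. Her2 had a log2 fold change of 0.64 ± 0.06 in D3MO relative to D1D2MO (adjusted p = 0.00012). Her12 had one of 0.61 ± 0.06 (adjusted p = 0.000136). Relative to SCMO, her12 stood at 0.56 ± 0.06 in D3MO (adjusted p = 0.000343), just short of 1.5-fold, and at -0.05 ± 0.05 in D1D2MO (adjusted p = 0.552). Without the dimmest 25 percent of listed probes, the number called higher between the knockdowns was 0 in place of 2. Dld lay on the opposite side, with a log2 fold change of -0.58 ± 0.06 in D3MO relative to D1D2MO (adjusted p = 0.00018), just short of 1.5-fold.

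Of 49 genes listed for glia and myelin, 3 were named, and they did not move together. Besides plp1a these were apoeb and vim, and no other myelin gene of the list had a name, so the myelin result rests on 1 probe of 1 gene. Apoeb, an apolipoprotein gene expressed in microglia and in yolk cells of zebrafish, had a log2 fold change of 0.74 ± 0.07 in D1D2MO (adjusted p = 0.000113, called) and of 0.32 ± 0.07 in D3MO (adjusted p = 0.0116), both relative to SCMO. Vim, which encodes the filament protein of radial glia and of mesenchyme, stood at 0.26 ± 0.05 in D1D2MO (adjusted p = 0.00742) and at -0.33 ± 0.06 in D3MO (adjusted p = 0.00302). It fell in D3MO relative to D1D2MO, with a log2 fold change of -0.60 ± 0.06 (adjusted p = 0.000139), a call that was lost when values were centred on the median of all probes. In that contrast plp1a lay on the other side, at 0.52.

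Markers of other tissues moved in the same samples. Of 70 genes listed for lens and retina, which belong to the head, the crystallin gene crygs3 was the only named member, and it fell in D3MO relative to SCMO with a log2 fold change of -0.66 ± 0.08 (adjusted p = 0.00064). It stood at -0.11 ± 0.07 in D1D2MO relative to SCMO (adjusted p = 0.299), so its values lay near those of sncgb and cplx2b. The mean log2 intensity of crygs3 was 7.77, below 8.13, the bound of the dimmest 25 percent of listed probes. Without those probes, 0 lens and retina genes in place of 1 were called lower in D3MO. Of 27 named muscle genes, 13 were called higher in D3MO relative to SCMO (median 0.56, between 0.07 and 1.13). In D1D2MO relative to SCMO, 25 were called higher (median 1.03, between 0.08 and 2.17), and none was called lower in either contrast. The muscle actin gene actc1b was the highest of these in D1D2MO. Of 14 named genes of skin, fin fold and notochord, 2 were called higher in D3MO (median 0.18) and 9 in D1D2MO (median 0.60). None of them was called lower relative to SCMO. At an adjusted p below 0.05 alone, 5 were higher and 2 lower in D3MO, and 12 higher and 1 lower in D1D2MO. Of all probes, 1.4 percent were called higher and 0.579 percent lower in D3MO relative to SCMO, and 2.35 percent higher in D1D2MO. By adjusted p alone, 15.6 percent were higher and 14.9 percent lower in D3MO, and 14.1 and 6.86 percent in D1D2MO. The medians of all named genes were 0.29 in D3MO and 0.51 in D1D2MO. The lens, muscle and skin genes too have a name only through a call in at least 1 contrast. The part of lens, muscle or skin RNA in the values of the neuron and myelin genes was not tested.

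For each member, the named genes with the most similar values in D1D2MO and D3MO relative to SCMO were found by Euclidean distance over those 2 log2 fold changes, among 555 genes. For neurod6b the nearest was another member, tagln3b, at a distance of 0.112, ahead of the phospholipase C gene plcd1b at 0.148. For tagln3b they were mgll, which encodes monoacylglycerol lipase, at 0.0756 and s100t at 0.105, so neurod6b was not among its nearest. For cplx2b they were the mitochondrial carrier gene ucp2 at 0.0251 and elavl4 at 0.0349. Among these, elavl4 and tagln3b belong to the neuron list.

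For sncgb the nearest were paip2b at 0.0323, whose own decrease in D3MO did not pass the test (adjusted p = 0.104), and igfbp5b, an insulin-like growth factor binding protein gene, at 0.0381. For the brightest rtn1a probe they were slc25a5, a mitochondrial carrier of ADP and ATP, at 0.00938 and eif2s3, a subunit of a translation initiation factor, at 0.0204. For plp1a they were wars1, which encodes tryptophanyl-tRNA synthetase, at 0.027 and the Notch ligand gene dlb at 0.0537. These distances describe 2 contrasts that share SCMO as their reference group, and genes of many kinds fell near each member.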

How the data were processed

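The members and the gene lists were chosen with earlier results of these data known. The authors quantified spots with GenePix, removed spots near background on all arrays, corrected background with a normal-exponential model, normalised within arrays by loess and fitted linear models with limma (version not given in the sources used here). Per the file headers, the deposited log2 fold changes come from these fits, the deposited score is limma's moderated t for the called probes, and the deposited p-values are unadjusted for all probes and adjusted for the called ones. These columns are the authors' own comparisons, and the tables used here hold no values per array. No other per-sample column was present (0 left out).

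With Python 3.11.15, numpy 2.4.6, pandas 2.3.3, scipy 1.17.1 and matplotlib 3.10.9, the SE was computed as log2 fold change over moderated t. For unlisted probes t was recovered from p at 8.72 degrees of freedom, the total implied by the called probes. Adjusted p-values were recomputed over 19523 probes by the Benjamini-Hochberg method and lay within 0.483 percent of the deposited adjusted p-values. These steps were tested on simulated data. A gene was represented by its brightest probe, the one with the highest deposited mean log2 intensity among its listed probes. RefSeq mRNA accessions were present for 810 of the 995 listed probes, and 786 of these could be assigned to a single gene through a RefSeq table of assembly GRCz12tu, used for names only.

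The text names the 6 members, their named paralogs, per gene list and contrast up to 4 called genes with the largest change (muscle and skin lists mainly by counts), and the 2 nearest genes of each member. Slc6a1b and stmn2a fall outside this rule and were named after their values were seen. Depth does not apply to arrays, and the number of arrays and pools limits the precision. Alternatives were no fold threshold, a 2-fold threshold, adjusted p below 0.01, the Benjamini-Yekutieli adjustment, a filter on dim probes, centring, and the mean or the dimmest probe of a gene. The planned search of promoters was not run.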

Additional observations from a re-analysis of the deposited data

Results flagged for a closer look

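The results below were flagged by a rule, an adjusted p below 0.05 in the contrast of D3MO with D1D2MO. That contrast tests whether the knockdown effects relative to SCMO differed. Of all probes, 17.3 percent were lower and 12.1 percent higher by this rule. All 6 members are given, while genes of the lists are given only where they were also called, at more than 1.5-fold. By that stricter rule, 2.28 percent of all probes were lower and 0.912 percent higher. Mllt11, sncb, stmn2a, stxbp1a, vim and her12 were called in this contrast alone. They have a name only through that call, so their passing here was fixed in advance. The log2 fold change of D3MO relative to D1D2MO was -0.41 for neurod6b, -0.42 for tagln3b, -0.59 for sncgb, -0.44 for cplx2b and -0.63 for the brightest probe of rtn1a, and it was 0.52 for plp1a. On the neuron list it was -0.79 for aldocb, -0.67 for gapdhs, -0.72 for mllt11, -0.67 for sncb, -0.61 for stmn2a and -0.77 for stxbp1a. It was -0.60 for vim of the glia list. On the progenitor list it was 0.61 for her12 and 0.64 for her2. Of the members, sncgb and rtn1a exceeded 1.5-fold here by their brightest probe. No group could be checked for a single array far from the others, since the tables used here hold no values per array.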

How the results depend on the processing

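Of 141 single member values recomputed under an alternative, 120 kept their direction and their side of the threshold, 8 lost the call, 12 gained it and 1 reversed. The reversed value was rtn1a in D3MO relative to SCMO, at 0.0308 with its dimmest probe and -0.30 with its brightest. Many of these values could not change direction. The thresholds, adjustments and dim filter leave a fold change as it is, and a member with 1 listed probe has the same mean and dimmest probe. Only centring, or another choice of probe for rtn1a, could alter a fold change. Without a fold threshold, D1D2MO vs SCMO had 2 member genes higher and 3 lower in place of 0 and 0, with 8 member probes called in place of 2. In that contrast 14.1 percent of all probes were then higher and 6.86 percent lower. D3MO vs D1D2MO had 1 higher and 5 lower in place of 0 and 2, with 9 probes in place of 5. There 12.1 percent of all probes were then higher and 17.3 percent lower. With a 2-fold threshold no member was called in any contrast: the probes fell to 0 in place of 2 in D1D2MO vs SCMO and 0 in place of 5 in each other contrast, and the genes in D3MO vs SCMO to 0 higher and 0 lower in place of 1 and 4, and in D3MO vs D1D2MO to 0 lower in place of 2. The share of all probes called at 2-fold was not computed. With the mean over probes or the dimmest probe, 1 member gene, rtn1a, was higher in D1D2MO vs SCMO, at 0.61 and 0.91. With centring, 1 gene in place of 2 was lower in D3MO vs D1D2MO. An adjusted p below 0.01, the Benjamini-Yekutieli adjustment and the filter on dim probes left all member counts within 1.5 times. The filter on dim probes removed neurod6b itself, though, and plp1a passed it narrowly, with a mean log2 intensity of 8.17 against the bound of 8.13. Since brightness is given for listed probes alone, that filter took out 249 of 995 listed probes and no others. Of 288 list counts, 47 moved by over 1.5 times. No paired analysis was possible because the tables used here hold fits and no values per array, and for the same reason no array was left out in turn and no other normalisation was run.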
